A study of Homo sapiens with 12 samples.

Results

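The response to quinacrine (QC) was examined in HeyA8 and HeyA8-MDR, an isogenic pair of human ovarian cancer cell lines, with 4 of the 12 libraries of the study. The members were the vehicle and QC libraries of each line: HeyA8 vehicle, HeyA8 QC, HeyA8-MDR vehicle and HeyA8-MDR QC. The cell line field of the labels gives HeyA8 for all 4 libraries, so the line was taken from the sample titles, which the resistance field of each sample matches. HeyA8 is labelled sensitive to platinum chemotherapy, and HeyA8-MDR, which the study's methods describe as a carboplatin-resistant derivative of it, is labelled resistant. Cells at sub-confluence were exposed for 6 h to QC at 8 µM or to vehicle, and polyadenylated RNA was sequenced from 1 library per line and treatment. The other 8 libraries, from the SK-OV-3/SK-OV-3-TR and OV2008/C13 pairs treated in the same way, entered the fits because no line had replicates of its own. Each p-value therefore measures the spread between cell lines and libraries, which may be technical. The question was which genes changed alike in the 2 isogenic lines, which changed in 1 line only, and whether genes of the HeyA8 QC library lay closer to the HeyA8-MDR vehicle level.

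Quinacrine is an acridine drug once used against malaria. It is a weak base that collects in acidic compartments such as lysosomes, and it binds DNA. Transcription of ribosomal DNA by RNA polymerase I in the nucleolus supplies the large ribosomal RNAs, and interference with it is known to stabilize p53 through free ribosomal proteins. HeyA8-MDR carries the suffix of multidrug resistance, a state in which the efflux pump ABCB1 (P-glycoprotein) is often abundant.

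Reads counted on genes totalled 24668935 in HeyA8 vehicle, 30585059 in HeyA8 QC, 21206002 in HeyA8-MDR vehicle and 20475386 in HeyA8-MDR QC. Of the 60669 gene IDs, 18720 passed the expression filter and were tested, and 11668 of them were measured in the pair, that is, had at least 100 reads in at least 1 of the 4 libraries. The keratin genes KRT7, KRT8 and KRT18 and the tumour marker PAX8 had between 4300 and 22290 reads in each library. The mesenchymal gene VIM had between 191756 and 216558 reads, whereas the epithelial adhesion gene EPCAM had between 0 and 66 and CDH1 between 0 and 5. Of the other epithelial markers, WT1 had between 73 and 121 reads, KRT19 between 2 and 8 and MUC16 between 0 and 5. All 6 blood cell markers had fewer than 10 reads in each library, and of the 6 fibroblast and mesothelial markers DCN and LUM had 0 and UPK3B at most 2. The other 3 were detected, PDGFRB with 10 to 21 reads, MSLN with 64, 66, 24 and 14 and CALB2 with 41, 206, 324 and 198 in the order of libraries above. Of the endothelial markers the cadherin CDH5 had between 2014 and 4661 reads, KDR between 24 and 108 and VWF between 9 and 115.

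The HeyA8 QC library stood apart in 1 respect that touches every comparison. For genes at least 8-fold apart between the vehicle libraries, with at least 100 reads in the higher of them, a position was computed on the linear scale of CPM, the counts scaled to library size with TMM factors. A position of 0% is the line's own vehicle level and 100% is the vehicle level of its partner. The 56 genes higher in HeyA8-MDR vehicle had a median position of 36.1% in HeyA8 QC (quartiles 27.7% and 49.3%), and the 113 genes lower in HeyA8-MDR vehicle had a median of 52.4% (quartiles 36.3% and 67.3%). Computed on log2 CPM instead, for HeyA8 only, the medians were 68.2% and 23.4%, so which of the 2 groups lay further along depends on the scale. Of these genes, 50 of 56 and 96 of 113 had a position above 20%. In the other 5 lines, genes higher in the partner line had medians between -0.00652% (SK-OV-3-TR) and 3.57% (HeyA8-MDR). Genes lower in the partner line, which move the same way when they fall with QC, had medians between 5.57% (C13) and 30.9% (HeyA8-MDR). The HeyA8 vehicle library enters both the change and the vehicle difference, so the 2 are not independent. A response of HeyA8 cells and RNA or cells of HeyA8-MDR in the HeyA8 QC library cannot be told apart with 1 library per condition. The main results below are therefore given also for HeyA8-MDR alone, for genes with like vehicle levels, or against a reference computed between the vehicle levels at the median position over all 169 genes (46.1%). That position is of the HeyA8 QC library itself. Changes of HeyA8 toward the HeyA8-MDR vehicle level therefore shrink against the reference by construction.

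**Figure D1:**
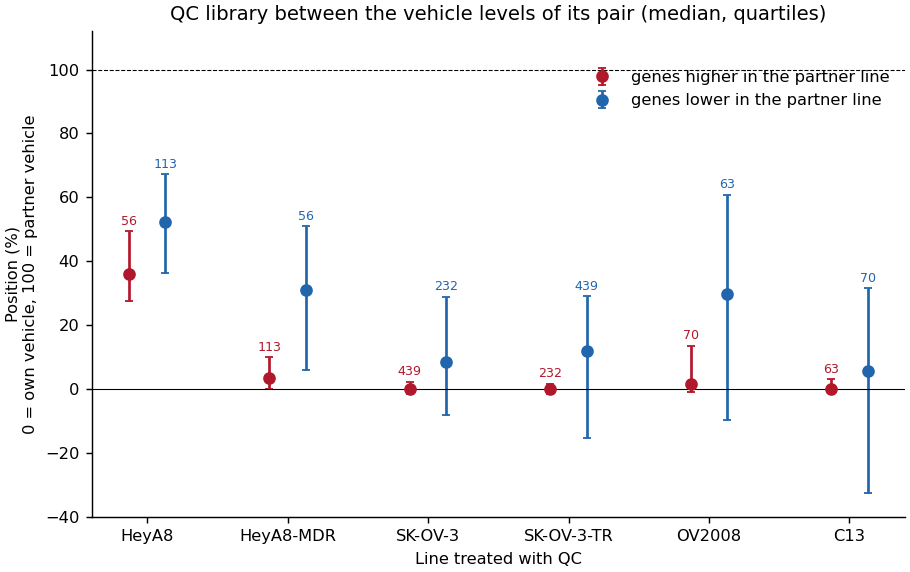
Position of each QC library between the vehicle level of its own line (0%) and that of its partner (100%), as the median with quartiles over genes at least 8-fold apart; the number of genes stands above each bar. The medians of HeyA8 were 36.1% and 52.4% on this linear scale (68.2% and 23.4% on log2 CPM, computed for HeyA8 only). In the other 5 lines, medians of genes higher in the partner line were at most 3.57%. Those of genes lower in the partner line were between 5.57% (C13) and 30.9% (HeyA8-MDR).

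Single genes show the size of this shift. ABCB1 (ENSG00000085563.15, chromosome 7), the multidrug efflux pump, had 93 reads in HeyA8 vehicle, 726 in HeyA8 QC, 1037 in HeyA8-MDR vehicle and 922 in HeyA8-MDR QC. On the CPM scale these were 4.12, 26.5, 53.9 and 54.6, which puts HeyA8 QC at 45.1% of the way while HeyA8-MDR stayed near its own vehicle level.

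WNT7A, which encodes a secreted Wnt ligand, had 0 reads in HeyA8 vehicle and 311 in HeyA8 QC, beside 386 and 420 in the HeyA8-MDR libraries. TMPRSS15, the intestinal serine protease enteropeptidase, had 0 and 389 reads in HeyA8, beside 389 and 422 in HeyA8-MDR. Set against a floor of 3 counts in the HeyA8 vehicle library, WNT7A was at least 85.5-fold and TMPRSS15 at least 107-fold higher in HeyA8 QC. NGFR, the low-affinity neurotrophin receptor, went from 0 to 22 reads in HeyA8 and from 114 to 10 in HeyA8-MDR. In the other direction, COL5A1, a fibrillar collagen chain, had 666 and 513 reads in HeyA8 but 4 and 2 in HeyA8-MDR, and CDCP1, a transmembrane glycoprotein, had 3894 and 2741 beside 9 and 36. Not every such gene lay between the vehicle levels: TNFSF15, a cytokine of the tumour necrosis factor family, rose from 22.8 to 71.2 CPM in HeyA8 and from 0.208 to 3.14 CPM in HeyA8-MDR.

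The same trend held over all measured genes. The 62 genes more than 8-fold higher in HeyA8-MDR vehicle had a median QC change of 2.96 on the log2 scale in HeyA8, and the 115 genes more than 8-fold lower had -0.92. Between these ends, each step in vehicle difference raised the HeyA8 median, and the 3236 genes within 0.25 log2 units had a median of -0.0047. In HeyA8-MDR the medians ran the other way, from 0.64 for the genes lowest in HeyA8-MDR vehicle to -0.33 for the highest. The HeyA8-MDR vehicle library likewise enters both of its axes.

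**Figure D2:**
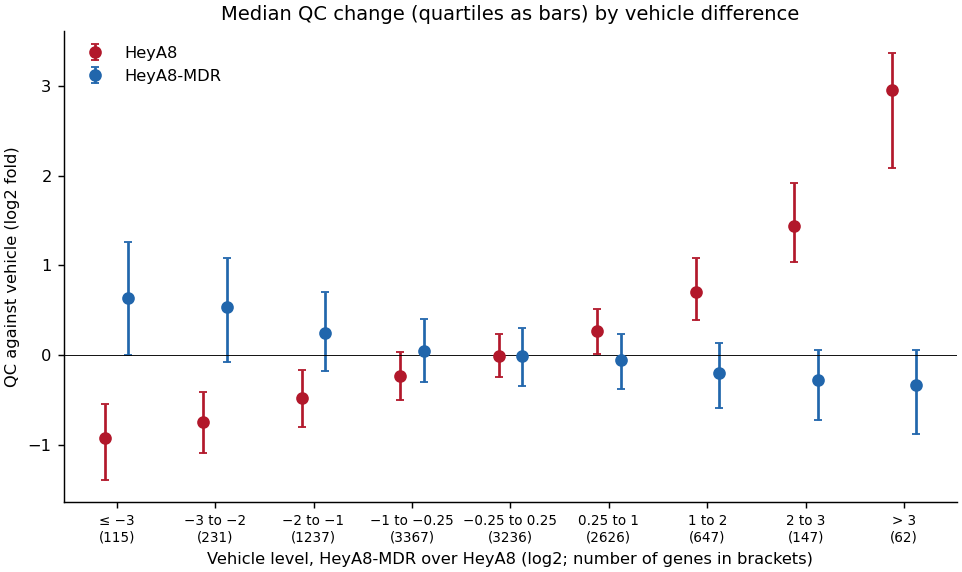
Median QC change (log2 fold, bars show quartiles) in HeyA8 and HeyA8-MDR for measured genes grouped by their HeyA8-MDR over HeyA8 vehicle ratio (log2, x axis). The HeyA8 median ran from -0.92 to 2.96 and the HeyA8-MDR median from 0.64 to -0.33.

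The QC effect in the pair was fitted with a term for each cell line, so that each QC library was set against its own vehicle library. At an unadjusted p under 0.05, the threshold the study used and the meaning of "rose" and "fell" here, 1838 genes rose (9.82% of the 18720 tested) and 1850 fell (9.88%), 19.7% in all. After Benjamini-Hochberg adjustment edgeR called 0 genes (smallest adjusted p 0.0516, shared by 41 genes), while DESeq2 with the same terms called 1392. With DESeq2's size factors in place of TMM edgeR called 64 at the same threshold. Without HeyA8, that is for HeyA8-MDR alone, 1653 genes rose (8.83%) and 1485 fell (7.93%), and 1902 of the 3688 genes of the pair remained with the same direction. Without HeyA8-MDR, that is for HeyA8 alone, 1784 rose (9.53%) and 1706 fell (9.11%). Library size alone as the scaling lowered the median change of the measured genes in HeyA8-MDR from 0.01 to -0.13 and turned the split into 1353 genes up and 2291 down.

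The genes that rose with the smallest p held at least a doubling in each line. PITPNC1 (ENSG00000154217.15, chromosome 17), a phosphatidylinositol transfer protein, had 10.6 CPM in HeyA8 vehicle, 35.3 in HeyA8 QC, 13.8 in HeyA8-MDR vehicle and 42.9 in HeyA8-MDR QC. Its change was 1.69 ± 0.21 (log2, SE worked back from the edgeR F statistic), with an edgeR adjusted p of 0.0516. KLF5 (ENSG00000102554.14, chromosome 13), a zinc-finger transcription factor of epithelia, went from 23.7 to 62.2 CPM in HeyA8 and from 36.7 to 85.2 CPM in HeyA8-MDR. CREBRF (ENSG00000164463.12, chromosome 5), a regulator of CREB3 and of cellular energy use, changed by 1.34 in each line on the log2 scale, from 35.4 to 89.5 CPM and from 54.6 to 138 CPM. ATP6V1E1 (ENSG00000131100.13, chromosome 22), a subunit of the proton pump that acidifies lysosomes, went from 72.2 to 201 CPM and from 113 to 239 CPM. CRABP2 (ENSG00000143320.9, chromosome 1), a carrier of retinoic acid, went from 1.06 to 9.83 CPM in HeyA8 and from 1.04 to 6.52 CPM in HeyA8-MDR. The vehicle levels of CRABP2 were nearly equal (24 and 20 reads), and the QC level of each line lay above both of them.

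The genes that fell with the smallest p included the largest subunit of RNA polymerase I. POLR1A (ENSG00000068654.16, chromosome 2) had 192 CPM in HeyA8 vehicle, 85.1 in HeyA8 QC, 95.6 in HeyA8-MDR vehicle and 35.4 in HeyA8-MDR QC, a change of -1.30 ± 0.16. MAT2A (ENSG00000168906.13, chromosome 2), which makes the methyl donor S-adenosylmethionine, had 32016 and 10256 reads in HeyA8 and 4560 and 1758 in HeyA8-MDR. SLC5A3 (ENSG00000198743.7, chromosome 21), a myo-inositol transporter, fell from 40.6 to 16.2 CPM and from 31 to 13 CPM. ERCC6L (ENSG00000186871.7, chromosome X), a DNA translocase of mitosis, fell from 22.0 to 7.49 CPM and from 7.69 to 2.49 CPM. P3H4 (ENSG00000141696.13, chromosome 17), a member of a collagen-modifying complex, fell from 25.6 to 9.91 CPM and from 24.3 to 8.65 CPM. For POLR1A, MAT2A and ERCC6L the HeyA8 QC level lay near or above the HeyA8-MDR vehicle level, and the change in HeyA8-MDR alone was -1.43, -1.18 and -1.59 on the log2 scale.

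**Figure D3:**
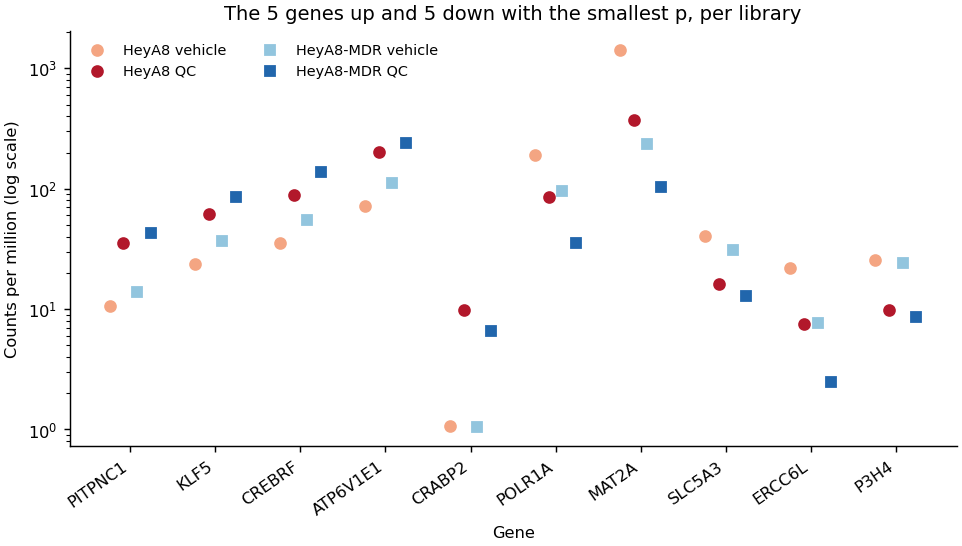
Levels in CPM (log scale) in the 4 libraries for the 5 genes up and the 5 down with the smallest p in the pair. The QC library lay above its own vehicle library for the first 5 genes and below it for the last 5 in each line, for example 10.6 to 35.3 for PITPNC1 in HeyA8 and 95.6 to 35.4 for POLR1A in HeyA8-MDR.

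Genes were next classed by fold alone, with no test, among the 11668 measured. A change of at least 2-fold in the same direction in each line was found for 72 genes upward (0.617%) and 117 downward (1%). In HeyA8 536 genes were up (4.59% of those measured) and 485 down (4.16%), and in HeyA8-MDR 473 were up (4.05%) and 473 down (4.05%). The 72 genes were 13.4% of those up in HeyA8 and 15.2% of those up in HeyA8-MDR, and the 117 were 24.1% and 24.7% of those down. Across the measured genes 7736 (66.3%) had the same sign in each line, and the changes correlated with a Pearson r of 0.342. Genes are not independent replicates, and no p is given. Among the 3236 genes with vehicle levels within 0.25 log2 units r was 0.774. In that set 16 of the 25 genes up at least 2-fold in HeyA8 were also up in HeyA8-MDR, as were 19 of the 31 down. The vehicle libraries enter both the choice of this set and the changes. Like vehicle levels by themselves raise r and the shared counts, so these values do not show how alike the responses were.

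**Figure D4:**
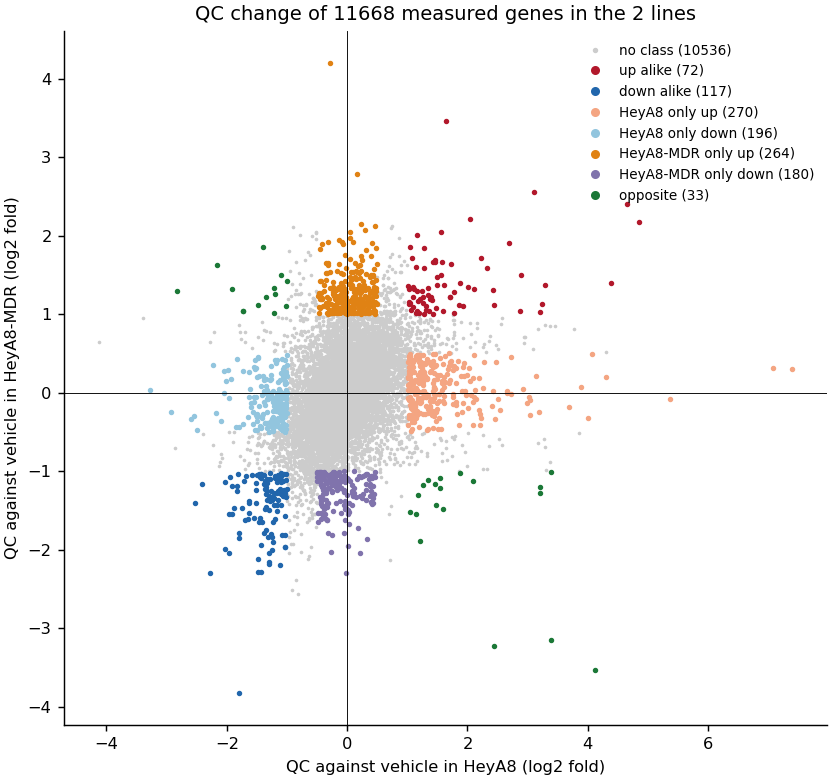
QC change (log2 fold) of the 11668 measured genes in HeyA8 (x axis) and HeyA8-MDR (y axis), coloured by class with the number of genes in brackets. The 72 genes up alike and 117 down alike lie in the upper right and lower left corners, and the 270 genes up in HeyA8 only reach further along their axis than any other class.

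Among the genes up alike, ranked by the line that changed less, CRABP2 came first, followed by LGI4, ZNF704, H4C8, TMEM45A, TNFSF15, PITPNC1, F3, ZSWIM5 and AK9. F3 encodes tissue factor, the starter of blood coagulation, and is also a target of the YAP pathway. It went from 755 to 4600 reads in HeyA8 and from 690 to 1814 in HeyA8-MDR, from nearly equal vehicle levels of 33.5 and 35.8 CPM. LGI4, a secreted leucine-rich repeat protein, had 2 and 117 reads in HeyA8 and 28 and 136 in HeyA8-MDR, so its HeyA8 value rests on 2 vehicle reads. TMEM45A, a transmembrane protein, went from 7.67 to 36.1 CPM and from 21 to 69.4 CPM. Genes just inside the limit were ABHD5 (log2 1.28 and 1.001) and NUAK2 (1.43 and 1.003), and just outside it stood COBLL1 (0.99 and 1.63) and MRPS6 (1.12 and 0.99).

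The leading genes down alike included NKX2-8, INAVA, ITGAX, TLR3, ERCC6L, MAP1A, ARHGEF39, RNF144B and SYT9. TLR3, the sensor of double-stranded RNA, fell from 9.79 to 2.45 CPM and from 3.79 to 1.24 CPM. ITGAX, an integrin alpha chain, fell from 10.9 to 3.44 CPM in HeyA8 and, from a higher vehicle level, from 15.7 to 5.09 CPM in HeyA8-MDR. MAP1A, a microtubule-associated protein, fell from 29.4 to 10.4 CPM and from 6.65 to 1.30 CPM. INAVA had 4 and 0 reads in HeyA8-MDR, so its fall there rests on 4 reads. Just inside this limit was ZFHX2 (log2 -1.02 and -1.03), and just outside it stood ZMYM1 (-1.30 and -0.9999) and SFXN2 (-0.997 and -1.31).

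Against the computed reference, which takes the HeyA8-MDR vehicle library into the HeyA8 comparison, 84 genes were up alike and 108 down alike. Of the original classes 55 of 72 and 68 of 117 remained. The classes of genes that changed alike were thus similar in size but not in all their members.

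Genes that changed at least 2-fold in HeyA8 and less than 0.5 log2 units in HeyA8-MDR numbered 270 up (2.31% of those measured) and 196 down (1.68%). Of the 270, 232 were at least 2-fold higher in HeyA8-MDR vehicle and 264 moved toward that level. Of the 196, 146 were at least 2-fold lower there, and all 196 moved toward it. Of all 11668 measured genes, 647, 147 and 62 were higher there by 1 to 2, 2 to 3 and over 3 log2 units. By the same steps 1237, 231 and 115 were lower. The HeyA8 vehicle library enters both the class and the vehicle difference, so the counts within the 270 and the 196 are not independent of the choice. Among the 3236 genes with like vehicle levels the counts were 0 and 2 (RBFOX3 and TXNRD3, named after their values were seen). Against the computed reference 30 and 48 genes were left in these classes. The reference was set from the position of the same HeyA8 QC library, so a drop is built in.

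The leading genes higher in HeyA8 QC only were TMPRSS15, WNT7A, TMEM225B, CYP4F3, FGF13 and EPHB3. FGF13, an intracellular growth factor homologue, had 24, 464, 679 and 627 reads in HeyA8 vehicle, HeyA8 QC, HeyA8-MDR vehicle and HeyA8-MDR QC. EPHB3, an ephrin receptor, had 6, 122, 142 and 110 in the same order. CYP4F3, a fatty acid and leukotriene hydroxylase, stood apart from these, with 5, 139, 6 and 8 reads, and so was high in HeyA8 QC alone. Its change in HeyA8 was 4.07 on the log2 scale, and the vehicle levels differed by 0.37.

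The leading genes lower in HeyA8 QC only were PAPPA2, IL18, CSRNP3, GALNT3, ABCC9 and SLC16A9, each with a position of at least 87.3%. PAPPA2, a protease that frees insulin-like growth factors, had 138 CPM in HeyA8 vehicle, 14.3 in HeyA8 QC, 16.9 in HeyA8-MDR vehicle and 17.3 in HeyA8-MDR QC. IL18, an inflammatory cytokine, went from 22.8 to 2.92 CPM in HeyA8 and stood at 1.56 and 1.30 CPM in HeyA8-MDR. ABCC9, a subunit of potassium channels, went from 410 to 86 reads in HeyA8, beside 34 and 21 in HeyA8-MDR. The rule that chose these 6 genes, a large fall in HeyA8 with little change in HeyA8-MDR, favours high positions.

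In HeyA8-MDR only, 264 genes were up (2.26%) and 180 down (1.54%). Of the 264, 191 had at least 2-fold lower vehicle levels in HeyA8-MDR than in HeyA8, and 261 moved toward the HeyA8 vehicle level. The HeyA8-MDR vehicle library enters both the class and these counts, so they are not independent. Library size alone as the scaling gave 171 up and 271 down. The changes also followed base composition: the fifth of genes with the lowest GC content (median 38.0%) had a median change of 0.37 in HeyA8-MDR and -0.07 in HeyA8, and the fifth with the highest (60.9%) had -0.15 and 0.03. The vehicle libraries differed along the same axis by more: the median log2 ratio of HeyA8-MDR to HeyA8 vehicle was -0.58 for the genes of lowest GC content and 0.24 for those of highest. The HeyA8-MDR vehicle library enters this ratio, the position of HeyA8 QC and the changes of HeyA8-MDR. The 264 genes had a median GC content of 37.9%, compared to 47.4% for all measured genes. After a correction for GC content and transcript length, added with the data in view, the class held 118 genes, 100 of them in common with the 264, and the down class held 224. The part of base composition in these changes was not tested further.

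The leading genes up in HeyA8-MDR only were ANGPT1, CXCL8, NEGR1, EFCAB2, EGR1 and EEA1. CXCL8, the neutrophil chemokine interleukin 8, had 11573 and 15708 reads in HeyA8 but 499 and 3026 in HeyA8-MDR, a change of 2.79 in HeyA8-MDR and 0.16 in HeyA8 on the log2 scale. EGR1, an early growth response transcription factor, went from 5.25 to 22.3 CPM in HeyA8-MDR and from 11.7 to 14.3 CPM in HeyA8. EEA1, a tether of early endosomes, went from 6.54 to 27.4 CPM in HeyA8-MDR beside 50.6 and 52.1 CPM in HeyA8. In each of the 3 the HeyA8-MDR vehicle library was the lowest of the 4.

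The leading genes down in HeyA8-MDR only were CSKMT, NNAT, L3MBTL1, AMIGO1, SLC29A3 and KLHL11. AMIGO1, a neuronal adhesion protein, had nearly equal vehicle levels (5.41 and 5.30 CPM), and stood at 5.30 CPM in HeyA8 QC and 1.66 CPM in HeyA8-MDR QC. L3MBTL1, a reader of methylated histones, had 328 and 89 reads in HeyA8-MDR and 138 and 170 in HeyA8. SLC29A3, a nucleoside transporter of lysosomes, had 154 and 43 reads in HeyA8-MDR and 62 and 59 in HeyA8. Among genes with like vehicle levels, 105 were down at least 2-fold in HeyA8-MDR and 31 in HeyA8, and 37 were in the HeyA8-MDR only class.

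The difference between the lines was tested with a QC effect for each line, whose spread came from the SK-OV-3 and OV2008 families alone. At an adjusted p under 0.05, 65 genes differed (0.347% of those tested), 38 with the higher effect in HeyA8-MDR and 27 with the lower. At an unadjusted p under 0.05 there were 1972 genes (10.5%), of which 945 had the higher effect in HeyA8-MDR (5.05%) and 1027 the lower (5.49%). All 65 had vehicle levels at least 2-fold apart, and in 64 of them HeyA8 QC moved toward the HeyA8-MDR vehicle level. The vehicle libraries of the 2 lines enter both the tested difference and the vehicle difference, so neither count is independent of the test. SLC7A11, the cystine importer, had 136 CPM in HeyA8 vehicle, 19.2 in HeyA8 QC, 7.01 in HeyA8-MDR vehicle and 17.3 in HeyA8-MDR QC, a difference of 4.13 ± 0.47 (log2, SE; edgeR adjusted p = 0.00547). CENPF, a kinetochore protein, had 367, 140, 7.79 and 28.4 CPM in the same order. UACA, a regulator of apoptosis, had 187, 120, 15.1 and 52.5 CPM. PMEPA1, a target and inhibitor of TGF-beta signalling, had 2.88, 58.7, 74.2 and 106 CPM, a difference of -3.83 ± 0.35 (edgeR adjusted p = 0.00226). RPL26P19, a ribosomal protein pseudogene with 23, 523, 414 and 30 reads, is uncertain because reads can be shared with RPL26.

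The changes of HeyA8-MDR followed GC content, and the list counts and medians below carry no correction for it. Counts for HeyA8-MDR alone or HeyA8 alone rest on the spread of the SK-OV-3 and OV2008 families, not of that line. The gene lists describe pathways around RNA polymerase I and p53, with counts at an unadjusted p under 0.05 by edgeR. They are to be read beside the shares of all genes, which were 9.82% up and 9.88% down in the pair, 8.83% and 7.93% in HeyA8-MDR alone and 9.53% and 9.11% in HeyA8 alone. Of 38 p53 targets tested, 13 rose (34.2%, beside 9.82% of all genes) and 0 fell, and the adjusted count was 0 as for all genes. The list median was 0.62 in HeyA8 and 0.07 in HeyA8-MDR on the log2 scale, and with library size alone the latter was -0.07. Among the 13 members with like vehicle levels the medians were 0.41 and 0.49, and against the computed reference the HeyA8 median was 0.30. In HeyA8-MDR alone 8 rose (21.1%) and 1 fell, and in HeyA8 alone 20 rose and 0 fell. PMAIP1 (NOXA), a promoter of apoptosis, went from 28.3 to 93.1 CPM in HeyA8 and from 64.8 to 151 CPM in HeyA8-MDR. RRM2B, a p53-induced subunit of ribonucleotide reductase, went from 288 to 497 CPM and from 265 to 543 CPM. The death receptor genes TNFRSF10A, TNFRSF10B and FAS rose, as did GDF15, a stress-induced cytokine (2.17 in HeyA8 and 0.83 in HeyA8-MDR). BTG2, SESN1, TIGAR and TP53I3 did not pass the test in the pair. Their HeyA8 values lay between 0.86 and 1.53 and their HeyA8-MDR values between -0.66 and -0.11, with higher vehicle levels in HeyA8-MDR. CDKN1A, which encodes the cell cycle inhibitor p21, had 10412 and 21010 reads in HeyA8 and 10455 and 9793 in HeyA8-MDR and was not called. After the correction for GC content and transcript length, the HeyA8-MDR changes of PMAIP1, RRM2B and CDKN1A were 0.79, 0.55 and 0.11 on the log2 scale. As measured they were 1.22, 1.04 and 0.095.

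Of 15 genes of the RNA polymerase I machinery, 0 rose and 3 fell (20% beside 9.88% of all genes): POLR1A, POLR1B and POLR1E. POLR1B, the second largest subunit, fell from 58.1 to 37.3 CPM in HeyA8 and from 43 to 14 CPM in HeyA8-MDR, and POLR1E fell by 0.42 and 0.60 on the log2 scale. In HeyA8-MDR alone 4 of the 15 fell and 0 rose, and in HeyA8 alone 2 fell and 0 rose. Of 49 ribosome assembly factors 9 fell (18.4%, beside 9.88% of all genes) and 4 rose (8.16%, beside 9.82%). In HeyA8-MDR alone 8 fell and 4 rose, but in HeyA8 alone 2 fell and 2 rose, a share below that of all genes. BYSL, needed for the small subunit, fell from 37.2 to 22.6 CPM and from 25.8 to 13.6 CPM. Those that rose were EBNA1BP2, PES1, DDX47 and NPM1. Of 77 cytoplasmic ribosomal protein genes 17 rose (22.1%, beside 9.82% of all genes) and 0 fell, with medians of 0.23 in HeyA8 and 0.35 in HeyA8-MDR, and against the computed reference the HeyA8 median was 0.00. In HeyA8-MDR alone and in HeyA8 alone 4 rose each (5.19%), less than the 8.83% and 9.53% of all genes. Many of these genes have pseudogene copies, so their counts are uncertain. RPS24 went from 27915 to 47636 reads in HeyA8 and from 30319 to 44440 in HeyA8-MDR.

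Of 13 genes named by the study and tested, 4 fell (30.8%, beside 9.88% of all genes), among them POLR1A, SKP2 and PHGDH, and 0 rose. In HeyA8-MDR alone 3 fell and 1 rose, and in HeyA8 alone 4 fell and 2 rose. The genes were chosen by the study on these libraries among others and are no independent evidence of direction. SKP2, a subunit of a ubiquitin ligase for cell cycle inhibitors, had 513 and 320 reads in HeyA8 and 354 and 90 in HeyA8-MDR. PHGDH, the entry enzyme of serine synthesis, had 317 and 95.6 CPM in HeyA8 and 166 and 125 CPM in HeyA8-MDR. GNL3, which encodes nucleostemin, was not called, with changes of -0.37 and -0.01, nor was FBL, the methyltransferase fibrillarin, with 0.71 and 0.14.

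Replication-dependent histone genes held one of the largest shares. Their mRNAs normally end in a stem-loop without a poly(A) tail, so polyadenylated RNA captures them in part, and copies of near-identical sequence make single counts uncertain. Of 25 tested, 11 rose (44%, beside 9.82% of all genes) and 0 fell, with medians of 0.96 in HeyA8 and 0.77 in HeyA8-MDR, of 0.96 and 0.70 for the 7 members with like vehicle levels, and of 1.08 in HeyA8 against the computed reference. In HeyA8-MDR alone 6 rose (24%) and 0 fell, and in HeyA8 alone 11 rose and 0 fell. H4C8 had 68 and 348 reads in HeyA8 and 26 and 111 in HeyA8-MDR. H2BC5 had 249 and 811 in HeyA8 and 213 and 596 in HeyA8-MDR, from vehicle levels of 11 and 11.1 CPM. H2BC21 had 301, 958, 292 and 416 reads in HeyA8 vehicle, HeyA8 QC, HeyA8-MDR vehicle and HeyA8-MDR QC.

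Because these genes moved together, the promoter stretches of the 4 H2B genes that rose and hold the octamer ATTTGCAT are shown, from RefSeq on GRCh38.p14. The octamer is in capitals, and each run of 60 bases lies before the start of transcription, 5′ to 3′ on the strand of the gene.
H2BC11 (chr6:27132809-27132868, minus strand): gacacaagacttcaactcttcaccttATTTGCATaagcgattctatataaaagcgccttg
H2BC21 (chr1:149886695-149886754, minus strand): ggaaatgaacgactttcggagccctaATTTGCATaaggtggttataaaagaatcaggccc
H2BC4 (chr6:26124016-26124075, minus strand): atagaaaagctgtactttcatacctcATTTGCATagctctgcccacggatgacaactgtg
H2BC6 (chr6:26183627-26183686, plus strand): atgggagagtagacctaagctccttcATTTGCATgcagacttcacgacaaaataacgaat
In windows from 250 bases before to 50 after the start, read on both strands, the octamer was in 6 of the 11 histone genes that rose and in 6 of the 14 that were not called, compared to 1.77% of 35116 promoters. It is thus common to histone genes whether or not they were called. The windows of H2AC6 and H2AC11 overlap those of H2BC4 and H2BC11 and hold the same octamer. The motif CCAAT was in 9 of the 11 and 13 of the 14 (34.6% of all promoters). The E-box CACGTG and the amino acid response element TGACGCAA were in 0 of the 25 windows (7.26% and 0.513% of all promoters), and the cAMP response element TGACGTCA was in 2 of the 11 and 1 of the 14 (1.85%).

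Of 25 genes of cholesterol synthesis and uptake, 10 rose (40%, beside 9.82% of all genes) and 0 fell. IDI1, an isoprenoid isomerase, went from 31.2 to 68.8 CPM in HeyA8 and from 38.7 to 78.0 CPM in HeyA8-MDR. MSMO1, a sterol oxidase, went from 29.8 to 69.1 CPM and from 58.1 to 107 CPM. SC5D, a sterol desaturase, changed by 0.84 and 0.90 on the log2 scale. The medians of the list were 0.72 in HeyA8 and 0.09 in HeyA8-MDR, the HeyA8 median was 0.23 against the computed reference, and the vehicle levels were higher in HeyA8-MDR by a median of 0.69. With library size alone the HeyA8-MDR median was 0. In HeyA8-MDR alone 6 genes of the list rose (24%) and 0 fell, and in HeyA8 alone 14 rose and 0 fell.

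Of 27 genes of glycolysis and hypoxia 12 rose (44.4%, beside 9.82% of all genes) and VEGFA, the angiogenic growth factor, fell. BNIP3L, a receptor for the removal of mitochondria, went from 131 to 204 CPM in HeyA8 and from 152 to 313 CPM in HeyA8-MDR, from like vehicle levels. PGK1 and LDHA, enzymes of glycolysis, were higher in HeyA8-MDR vehicle, and changed by 1.43 and 1.04 in HeyA8 beside 0.40 and 0.28 in HeyA8-MDR. The HeyA8 median of the list was 0.36 as measured and 0.09 against the computed reference, beside 0.45 in HeyA8-MDR. In HeyA8-MDR alone 5 rose (18.5%) and 0 fell, and in HeyA8 alone 10 rose and 3 fell.

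Of 36 lysosome genes 4 rose, among them ATP6V1H, NPC2 and ATP6AP1, and SGSH fell, and the 4 were 11.1% of the list beside 9.82% of all genes. In HeyA8-MDR alone 2 rose and 0 fell, and in HeyA8 alone 4 rose and 2 fell. Of 28 immediate early genes 8 rose (28.6%, beside 9.82% of all genes) and MCL1 fell. In HeyA8-MDR alone 9 rose and 2 fell, whereas in HeyA8 alone 3 rose (10.7%, near the share of all genes) and 1 fell. KLF10 changed by 0.24 in HeyA8 and 1.33 in HeyA8-MDR, and FOS, the AP-1 subunit, by 0.13 and 1.48. Of 22 NF-kB targets 3 rose (13.6%, beside 9.82%) and 0 fell. TNFAIP3, the inhibitor A20, went from 54.0 to 165 CPM and from 96.4 to 248 CPM, and TRAF1 and NFKBIE also rose. In HeyA8-MDR alone 9 of the 22 rose (40.9%) and 0 fell, whereas in HeyA8 alone 2 rose and 5 fell. The NF-kB list median was -0.11 in HeyA8 and 0.74 in HeyA8-MDR, and 8 members had a higher effect in HeyA8-MDR (unadjusted p under 0.05, beside 5.05% of all genes), whose vehicle levels were lower by a median of 1.81 log2 units.

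Amino acid response genes, the targets of ATF4, were lower in HeyA8 QC for the most part. Of 25 tested, 5 fell in the pair (20%, beside 9.88% of all genes) and 2 rose. In HeyA8 alone 13 fell (52%, beside 9.11%) and 1 rose, whereas in HeyA8-MDR alone 0 fell and 4 rose (16%, beside 8.83%). The list had medians of -0.95 in HeyA8 and -0.0039 in HeyA8-MDR, and -0.82 in HeyA8 against the computed reference. SLC7A5, the importer of large neutral amino acids, had 686 and 94.7 CPM in HeyA8 and 235 and 144 CPM in HeyA8-MDR. Its HeyA8 QC level was below the HeyA8-MDR vehicle level and so outside the range of the vehicle libraries. PSAT1, PSPH and SHMT2, enzymes of serine and one-carbon metabolism, changed by between -1.92 and -0.95 in HeyA8 and between -0.06 and 0.18 in HeyA8-MDR, and of these PSPH was called in the pair. ATF3, a stress-induced factor on the same list, rose from 8.46 to 63.6 CPM and from 37.2 to 106 CPM.

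Of 30 mitosis genes PTTG1 rose and 0 fell in the pair, but 18 had a higher effect in HeyA8-MDR at an unadjusted p under 0.05 (beside 5.05% of all genes). In HeyA8-MDR alone 14 rose (46.7%, beside 8.83%) and 0 fell, and in HeyA8 alone 0 rose and 10 fell (33.3%, beside 9.11%). The list medians were -0.50 in HeyA8 and 0.67 in HeyA8-MDR, and the vehicle levels were lower in HeyA8-MDR by a median of 1.30. TOP2A, the DNA topoisomerase of dividing cells, had 465, 397, 135 and 329 CPM in HeyA8 vehicle, HeyA8 QC, HeyA8-MDR vehicle and HeyA8-MDR QC. HMMR had 117, 81.7, 21.1 and 87.5 CPM, and CDK1, the kinase that starts mitosis, had 117, 116, 33.2 and 99.9 CPM. The HeyA8-MDR vehicle library was thus the lowest of the 4 for each. Against the computed reference the HeyA8 median was -0.0013. After the correction for GC content and transcript length, the HeyA8-MDR changes of CDK1, CENPF and PTTG1 were 1.17, 1.73 and 0.85 on the log2 scale. As measured they were 1.58, 1.85 and 0.84. In bulk RNA, fewer cells in mitosis and less RNA per cell cannot be told apart.

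Endoplasmic reticulum chaperones had medians of 0.67 in HeyA8 and -0.26 in HeyA8-MDR, from vehicle levels a median of 1.49 higher in HeyA8-MDR, and the HeyA8 median was -0.25 against the computed reference. HSPA5 (BiP), the main chaperone of this compartment, had 1156 and 2012 CPM in HeyA8 and 4819.8 and 3560.3 CPM in HeyA8-MDR. Of 18 members HSP90B1 and EDEM1 rose (11.1%, near the 9.82% of all genes) and HERPUD1 fell. In HeyA8-MDR alone 0 rose and 3 fell, whereas in HeyA8 alone 10 rose and 0 fell. Of 23 YAP and TGF-beta targets 4 rose (17.4%, beside 9.82% of all genes), led by F3, and 5 fell (21.7%, beside 9.88%), led by ID1, an inhibitor of differentiation that had 25.6 and 11.1 CPM in HeyA8 and 10.2 and 5.69 CPM in HeyA8-MDR. In HeyA8-MDR alone 4 rose and 4 fell, and in HeyA8 alone 3 rose and 5 fell. Of 40 DNA replication genes 5 rose (12.5%) and 4 fell (10%), shares near those of all genes. TIMELESS and CDT1 were among those that fell. In HeyA8-MDR alone 2 rose and 2 fell, and in HeyA8 alone 5 rose and 5 fell. Of 5 metallothionein and zinc genes SLC30A1 rose and MT2A fell, and 3 fell in HeyA8-MDR alone but 0 in HeyA8 alone, where 1 rose. Of the 10 drug efflux pumps tested, ABCC4 rose in the pair (10%) and ABCC5 and ABCC10 fell (20%), with edgeR adjusted p-values of 0.207, 0.179 and 0.156. ABCB1 had a change of 1.24 ± 0.56 (log2, SE) and did not pass (unadjusted p = 0.0524, edgeR adjusted p = 0.259). In HeyA8-MDR alone 0 pumps rose and 2 fell, and in HeyA8 alone 3 rose and 1 fell.

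In the pair the other lists held few called genes, and no share above 12.2%. Some shares were larger in 1 line alone, among them those of the antioxidant and iron genes and of cholesterol export. Of 15 cytosolic heat shock genes AHSA1, a cochaperone of HSP90, rose, with list medians of 0.39 in HeyA8 and 0.37 in HeyA8-MDR. Of 21 interferon-stimulated genes USP18 and IFIT1 fell, and of 22 antioxidant and iron genes MAFG rose and GCLC and FTH1 fell. In HeyA8-MDR alone 1 and 4 genes of these lists rose and 1 of each fell, and in HeyA8 alone 0 and 1 rose and 3 and 6 fell. FTH1, the ferritin heavy chain, went from 845 to 489 CPM in HeyA8 and from 550 to 463 CPM in HeyA8-MDR. Of 41 collagens, laminins and integrins 5 rose (12.2%) and 2 fell, with 4 up and 0 down in HeyA8-MDR alone and 5 up and 4 down in HeyA8 alone. Of 13 mitochondrially encoded mRNAs MT-ND6 rose, and of 7 cholesterol export genes 0 were called by edgeR at the unadjusted or the adjusted threshold. In HeyA8 alone 2 of these 7 rose.

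**Figure D5:**
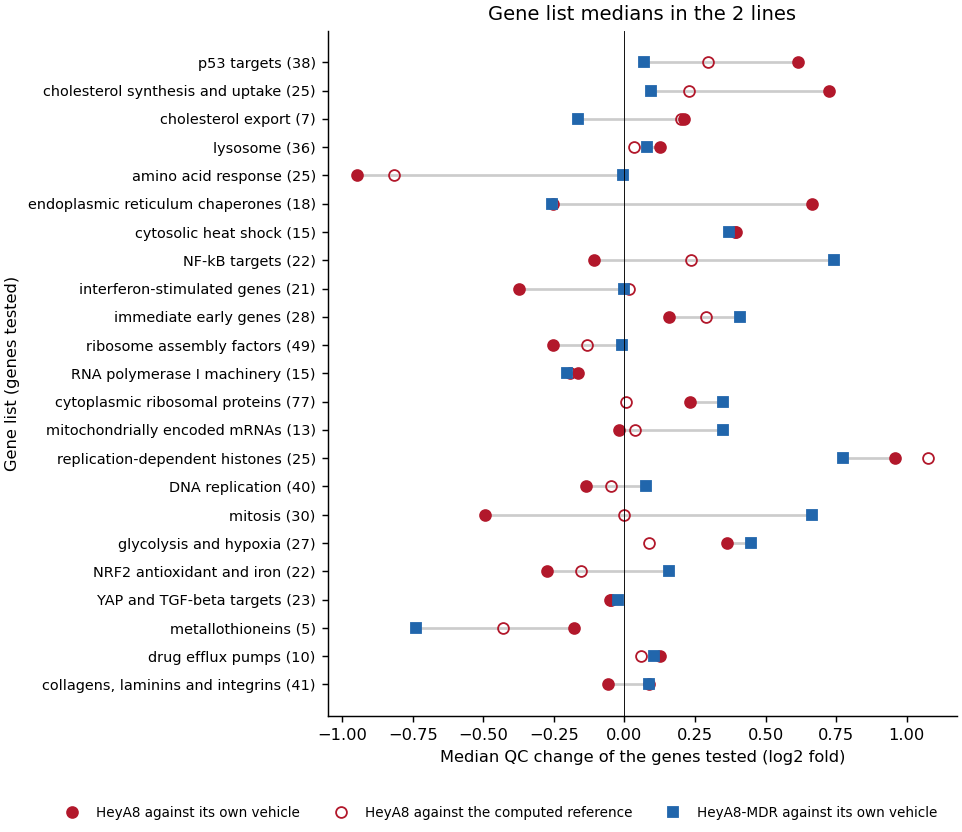
Median QC change (log2 fold) of each gene list in HeyA8 against its own vehicle library (filled circles), in HeyA8 against the computed reference (open circles) and in HeyA8-MDR (squares), with the number of genes tested in brackets. Histone genes lay between 0.77 and 1.08 by all 3 measures, while endoplasmic reticulum chaperones moved from 0.67 to -0.25 in HeyA8 with the reference.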

How the data were processed

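RNA-seq was analysed for the 4 HeyA8 and HeyA8-MDR libraries, fitted with the 8 other libraries. The authors deposited raw read counts per gene, without normalization. The submitters' processing notes name STAR 2.7.3a, HTSeq 0.6.1p1 and GRCh38.p13, whereas the study's methods name TopHat, hg19 and HTSeq; the strand setting is not given in the sources used here. Symbols for 58663 of 60669 IDs came from a gene table, the 2006 others hold 0.132% of the counts, and chromosomes are from GENCODE on GRCh37. Some histone and other list genes were not paired with an ID and were not analysed here.

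Counts were kept by filterByExpr (minimum count 10, minimum total 15) over resistance and treatment, scaled by TMM and tested two-sided in R 4.3.3 with edgeR 4.0.16 (quasi-likelihood) and Benjamini-Hochberg adjustment. The fit for the pair had a term per cell line and a QC effect per family (3 residual degrees of freedom), and the fit for the difference had separate effects for HeyA8 and HeyA8-MDR (2). Vehicle and QC libraries were paired because they came from 1 cell line, and their deviations correlated at 0.893 to 0.929. Values per line are log2 ratios of CPM with a prior count of 2. Each SE is the size of the fitted change divided by the square root of its quasi-likelihood F statistic. It carries spread from the other families and is not replicate spread within the pair. DESeq2 1.42.0 was an alternative. Counts simulated with known changes were also put through the fits. They had the same dispersion for all genes and neither the GC trend nor the position of the HeyA8 QC library, so they do not bear on those limits. Plots used matplotlib 3.10.9.

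Genes were named by rule: the study's genes, the 10 largest of each alike class by the lesser change, 6 of each class of 1 line, 5 up and 5 down with the smallest p, 2 per list, 6 extreme vehicle differences each way with ABCB1, and 3 each way for the difference. A few genes so chosen are left unnamed here, although all tests and counts include them. Other list members named stand as examples chosen after their values were seen. The members, lists and alternatives were chosen with earlier results of these data known.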

Additional observations from a re-analysis of the deposited data

Results flagged for a closer look

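The QC effect differed between HeyA8-MDR and HeyA8 for 65 genes by edgeR's test of the difference (adjusted p under 0.05), with the spread taken from the SK-OV-3 and OV2008 families since neither line of the pair had replicates. On the log2 scale the effect was higher in HeyA8-MDR by 4.13 for SLC7A11, 2.45 for UACA and 3.26 for CENPF. The difference (HeyA8-MDR minus HeyA8) was -3.83 for PMEPA1, -10.75 for WNT7A and -7.82 for RPL26P19. The value of WNT7A depends on the prior count, since HeyA8 vehicle had 0 reads. All 65 genes had vehicle levels at least 2-fold apart, and the part of the position of the HeyA8 QC library in these differences was not tested. The vehicle libraries enter both the tested difference and the vehicle difference, so the 2 are not independent.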

How the results depend on the processing

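With 1 library per line and treatment, the pair fit rests on spread shared with 4 other lines, and the main limits are the position of the HeyA8 QC library and the GC trend in HeyA8-MDR. Fits that leave out 1 line of the pair take their spread from those 4 lines alone. Of 82 genes named for the pair, 79 kept their direction under all 12 alternatives. The exceptions were MYLIP without HeyA8 (-0.17), and G3BP1 (-0.28) and CDK1 (-0.021) without HeyA8-MDR. Genes other than the study's were chosen by a large change or a small p in the pair, which favours a kept direction. The alternative limited to vehicle-like genes reuses the same fitted changes, so it cannot alter a direction.

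The count of genes with an adjusted p under 0.05 in the pair, 0 as reported, was 64 with DESeq2's size factors, 30 with library size alone, 1210 without a filter, 249 with at least 10 reads in each of the 4 libraries, 1392 with DESeq2 and 14 without the SK-OV-3 pair; leaving out 1 line of the pair gave 217 (without HeyA8) and 397 (without HeyA8-MDR). Genes down at an unadjusted p numbered 1228 with only the 4 libraries of the pair. Without the replicate block of the cell line 250 rose and 268 fell, and within vehicle-like genes, a smaller set, 511 rose and 491 fell. Leaving out 1 line gave 1653 and 1784 up and 1485 and 1706 down. The 65 differing genes became 21 with library size alone, 335 without a filter, 176 with DESeq2 and 234 without the SK-OV-3 pair, and the 1027 genes lower in HeyA8-MDR at an unadjusted p became 530 with DESeq2.

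Class counts follow their limits, and are given as up alike, down alike, HeyA8 only up and down, HeyA8-MDR only up and down, and opposite (33 as reported). A 1.5-fold limit gave 439, 580, 765, 809, 988, 764 and 197, and a 3-fold limit 8, 8, 82, 25, 30, 16 and 4. With the other line under 0.25 the 4 classes of 1 line held 156, 102, 161 and 73. At least 30 reads gave 166, 196, 512 and 296, then 352 for HeyA8-MDR only down and 97 opposite; at least 300 reads gave 45, 47, 159 and 123, then 71 and 10. Library size alone gave 171 and 271 for HeyA8-MDR only up and down. The computed reference, set from the position of HeyA8 QC itself, gave 30 and 48 for HeyA8 only and 3 opposite. Vehicle-like genes gave 16, 19, 0, 2, 5, 37 and 0. The GC and length correction, chosen after seeing the data, gave 118 for HeyA8-MDR only up. A prior count of 0.5 and DESeq2's size factors kept every class within 1.5 times its count. On log2 CPM the position medians were 68.2% and 23.4% in place of 36.1% and 52.4%, since a log scale stretches low levels.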
